A study of Mus musculus with 8 samples.

Results

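Bone marrow cells of mice carrying JAK2V617F were compared between Gli1 knockout and wild type haematopoiesis by droplet single-cell RNA sequencing. The comparison took its 2 libraries from the sample titles: 3602 wild type and 6490 Gli1 knockout cells passed the filter, 10092 of the 22078 pass cells of the series. A pass cell had at least 500 genes, at least 1000 unique molecular identifiers (UMIs, each standing for 1 captured transcript) and under 10% mitochondrial UMIs. Both groups were female B6.SJL recipients aged 8 to 10 weeks and irradiated with 10.5 Gy, given marrow from 8-week-old donors after 48 hours in culture with retrovirus. The donors were wild type or lacked Gli1, and both groups carried the retroviral JAK2V617F with a GFP reporter, so the controls were not healthy marrow. Marrow was taken at day 112, depleted with antibodies to B220, CD3, CD11b, GR1 and TER119 and sorted by GFP, and the proportions of GFP-positive and GFP-negative cells loaded were not stated. The other 2 libraries, Gli1 knockout and wild type with unmutated JAK2 (JAK2WT), held 11986 pass cells and are used below only as a separate pair. The design addresses whether haematopoietic Gli1 plays a part in myelofibrosis driven by the mutant kinase.

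Gli1 is a zinc finger transcription factor at the end of the hedgehog pathway, in which a ligand binds Ptch1, Smo is released and Gli proteins enter the nucleus. In marrow it is best known as a marker of stromal cells around vessels that become scar-forming myofibroblasts. JAK2V617F is a kinase that signals without its cytokine, mainly through STAT5, and drives red cell, platelet and granulocyte production. In mice such signalling enlarges the erythroid compartment and can be followed by fibrosis.

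Each group was 1 pool of 3 mice and 1 library, so the differences below have neither replicates nor tests. All intervals are 95% intervals that cover counting error only. The libraries held 59165347 and 114847114 UMIs over 5907 and 8762 barcodes, wild type first as throughout. Median depth per pass cell was 13149.5 and 13785 UMIs, and 31.7% and 22.03% of all barcodes were at or over the mitochondrial limit. The libraries shared 5 pass barcodes. Xist, expressed from the inactive X chromosome of females, had 38864 and 338 UMIs, whereas 4 Y-linked genes (Ddx3y, Eif2s3y, Kdm5d and Uty) had 1 and 13015 UMIs, the latter in 72.0% of knockout cells. Genotype and the sex of the cells cannot be told apart, and gene comparisons were limited to autosomes. In the knockout library 43 cells (0.663%) held Xist and no Y-linked UMI, among them 29 of the 48 stromal-like cells (60.4%).

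The deleted gene could not check the labels, because Gli1 was near 0 in both libraries: 2 UMIs in 2 cells and 5 UMIs in 3 cells. The file does not tell which part of the transcript those UMIs came from. The 5 knockout UMIs lay in stromal-like cells, of which 40 of 48 (83.3%) held Xist. Whether these were cells of the female recipients was not tested. Jak2, the gene of the kinase itself, stood at 43.9 CPM (UMIs per 1000000 autosomal UMIs, 95% interval 42.1 to 45.7) in wild type and 33.6 CPM (32.5 to 34.7) in the knockout, and a 3' count does not separate the viral from the endogenous transcript. GFP had 103 UMIs in 98 cells (2.72%) and 74 UMIs in 66 cells (1.02%). GFP thus marked few cells in either library, and no analysis of transduced cells alone had the depth to compare genes within classes.

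Hedgehog genes were sparse in both marrows. Of 24 pathway genes, 4 were measured, meaning a mean of at least 20 CPM, and all 4 act downstream of the receptor: the kinases Csnk1a1, Gsk3b and Prkaca, and Spop, an adaptor that marks Gli proteins for destruction. Ptch1, the receptor that Gli1 itself induces, had 637 and 924 UMIs, 12.3 and 8.89 CPM. Smo, the transducer, had 670 and 2086 UMIs, 12.9 and 20.1 CPM. Both are sums over all pass cells, which differences in class shares also move, and neither gene reached the measuring limit. The ligands Shh, Ihh and Dhh together with Gli2 had at most 6 UMIs each in either library. In stromal-like cells, the compartment in which Gli1 is usually described, Gli1 had 1 and 5 UMIs and Ptch1 11 and 5 over 54 and 48 cells. Of the 48 knockout cells 40 held Xist, so they may not stand for the knockout genotype.

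Erythroid cells differed most between the 2 marrows. Early erythroid progenitor-like cells, named from Klf1, Car1 and other fixed markers, were 462 of 3602 cells (12.8%, exact binomial interval 11.8 to 13.96) in wild type and 27 of 6490 (0.416%, 0.274 to 0.605) in the Gli1 knockout. Erythroblast-like cells, which carried the haemoglobin genes, were 907 (25.2%, 23.8 to 26.6) and 34 (0.524%, 0.363 to 0.731). Both classes together took 38.0% of the wild type and 0.940% of the knockout library, a share 40.4-fold lower in the knockout (31.4 to 52.1). In the JAK2WT pair the same classes held 84 cells (1.05%) in wild type and 52 cells (1.30%) in the knockout. The JAK2V617F wild type library was therefore the single library of the 4 with a large erythroid share, and the knockout stood near both JAK2WT libraries. The depletion removed TER119-bearing cells, so these shares describe immature erythroid cells that stayed after it, and fewer cells in the marrow cannot be told apart from unequal loss in depletion or loading.

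Several other classes were a larger part of the knockout library. HSC/MPP-like cells, stem and multipotent progenitors, were 511 cells (14.2%) and 2437 cells (37.6%), 2.65-fold higher (2.43 to 2.89). Innate lymphoid-like cells were 4.83% and 9.26%, T and NK-like cells 1.89% and 5.05%, and monocyte-like cells 3.30% and 5.52% (1.67-fold, or 3.32-fold when the 2 libraries were clustered alone). Plasmacytoid dendritic-like cells were 10 and 89 cells (4.94-fold), and conventional dendritic-like cells 16 and 93 (3.23-fold). GMP and promyelocyte-like cells, the granulocyte and monocyte precursors, were lower at 16.4% and 13.4%, neutrophil-like cells were 6.08% and 4.65%, and stromal-like cells 1.499% and 0.740%. Basophil-like cells took 4.69% and 4.70%.

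Because shares sum to a fixed total, the erythroid deficit raises all others. Among the 2233 and 6429 cells that were not erythroid-like, HSC/MPP-like cells were 22.9% and 37.9%, still 1.66-fold higher in the knockout (1.53 to 1.799). GMP and promyelocyte-like cells were 26.5% and 13.5% (ratio 0.510, 0.465 to 0.560), and neutrophil-like cells 9.81% and 4.70% (ratio 0.479). Monocyte-like cells came to 5.33% and 5.57%, a ratio of 1.04, so their higher share of all cells was not seen among non-erythroid cells. With these denominators the knockout library held more stem and progenitor-like cells and fewer granulocyte precursors for its size. Cells with a GFP UMI, 98 and 66 in all, were not split in this way. Of them 15 and 1 were early erythroid progenitor-like and 33 and 2 erythroblast-like. With those cells kept in, the ratios of shares were 1.29 for GMP and promyelocyte (15 and 13 cells), 1.89 for neutrophil (11 and 14) and 2.02 for basophil (14 and 19). These ratios contain the erythroid deficit and cannot be set against the non-erythroid ratios above.

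**Figure D1:**
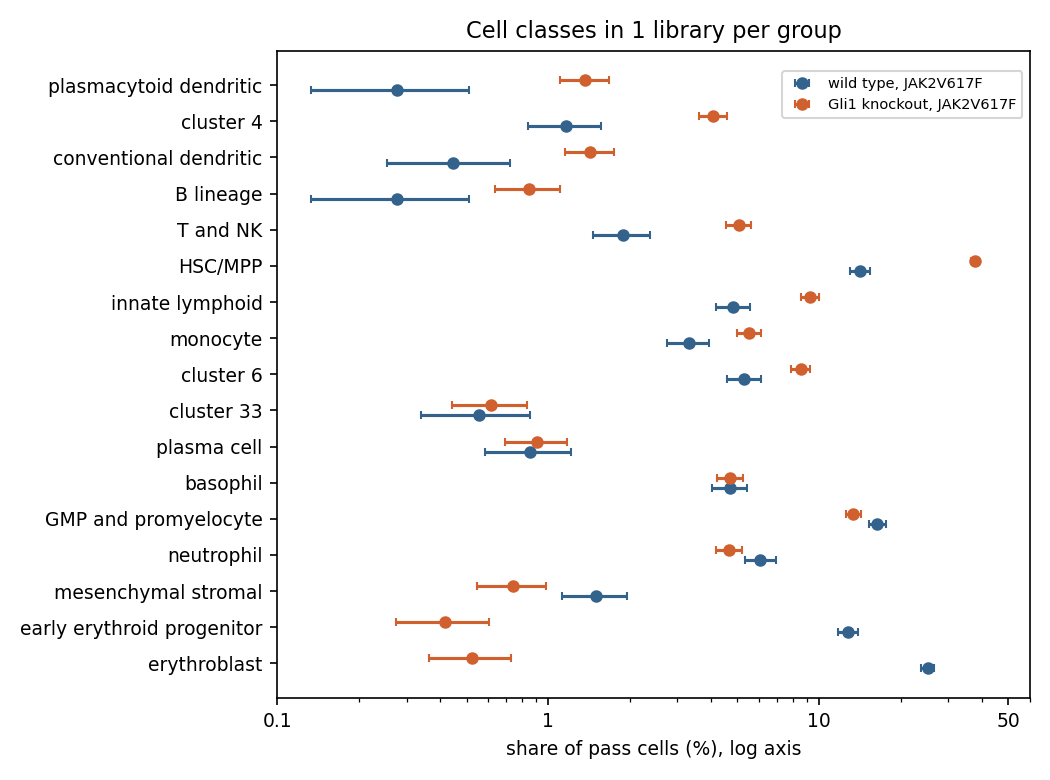
Share of pass cells in each class (log axis, percent) in the wild type (blue) and Gli1 knockout (orange) library with JAK2V617F, with exact binomial 95% intervals and 1 library per group. The 2 erythroid classes, at the bottom, lie below 1% in the knockout and above 10% in wild type, and HSC/MPP-like cells lie at 14.2% and 37.6%.

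Summed over all pass cells, the gene differences followed those shares. Of 5696 measured autosomal genes, 421 (7.39%) were 1.5-fold or more higher and 379 (6.65%) 1.5-fold or more lower in the Gli1 knockout, with a median log2 ratio (knockout over wild type) of -0.01. The lowest by the naming rule were genes of the red cell lineage or expressed in it. Car1, a carbonic anhydrase of erythroid progenitors, stood at 625 CPM in wild type and 15.6 CPM in the knockout, a log2 ratio of -5.33. Cldn13 was at -5.22, and Aqp1, the water channel, at -5.11. Smim1, Rhd, Ermap and Mt2 were also in the group. Without erythroid-like cells the counts were 91 higher and 83 lower. All 13 measured genes of the globin and red cell membrane list were past 1.5-fold lower, with a median of -4.94, and 11 of 14 heme synthesis and iron uptake genes were, with a median of -1.56.

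Genes of antigen presentation were among the highest ratios in these sums. H2-Aa, a class II chain, stood at 33.4 and 131 CPM (1.97), and Cd74, the class II chaperone and receptor for Mif, at 107 and 354 CPM (1.72). Ltb, a lymphoid cytokine, was at 33.0 and 107 CPM, and Apoe at 75.7 and 197 CPM. The rule also named Tpm3-rs7, H1fx (1.45), Ifi203 (1.43) and Nrgn (1.40). Of the 14 stem cell regulators, 11 were past 1.5-fold higher, and so were 6 of 6 measured class II genes. Mif itself, a macrophage migration cytokine, was at 892 and 760 CPM.

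To compare like cells, CPM was computed within each class that had at least 50 cells in both libraries, and the 7 class values were averaged with equal weight: HSC/MPP, GMP and promyelocyte, monocyte, neutrophil, basophil, innate lymphoid, and T and NK. On this class-matched scale 39 of 5884 measured genes (0.663%) were 1.5-fold or more higher and 70 (1.19%) 1.5-fold or more lower, around a median of -0.01. Counting intervals of all 39 and all 70 lay on 1 side of 0, and 22 and 40 of them lay past 1.5-fold. With cells thinned to 2000 UMIs the counts were 68 and 132, and 248 wild type and 503 knockout cells below that depth were left out. Class II genes had a median of -0.03 on this scale, with Cd74 at 598 and 539 CPM (-0.15) and H2-Aa at 0.07. The classes differed in this: the class II median was 0.97 in monocyte-like and 1.66 in neutrophil-like cells, with 3 of 3 measured genes past 1.5-fold higher in each, and -0.29 in HSC/MPP-like cells. Of all genes of at least 100 CPM and 50 UMIs, 0.832% were higher in monocyte-like and 2.16% in neutrophil-like cells. The class II genes were counted from 20 CPM, so these shares have another limit. Conventional dendritic-like cells, a class led by class II genes, were 16 and 93 cells. The part of free RNA or doublets in the monocyte-like and neutrophil-like values was not tested. Medians of stem cell regulators (0.06) and heme genes (-0.04) also lay near 0. Among cell cycle genes, the G2 and mitosis list had a median of -0.46 in the sums and 0.02 class-matched. Mki67, the proliferation marker, was at 504 and 183 CPM in the sums, and -0.21 class-matched.

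**Figure D2:**
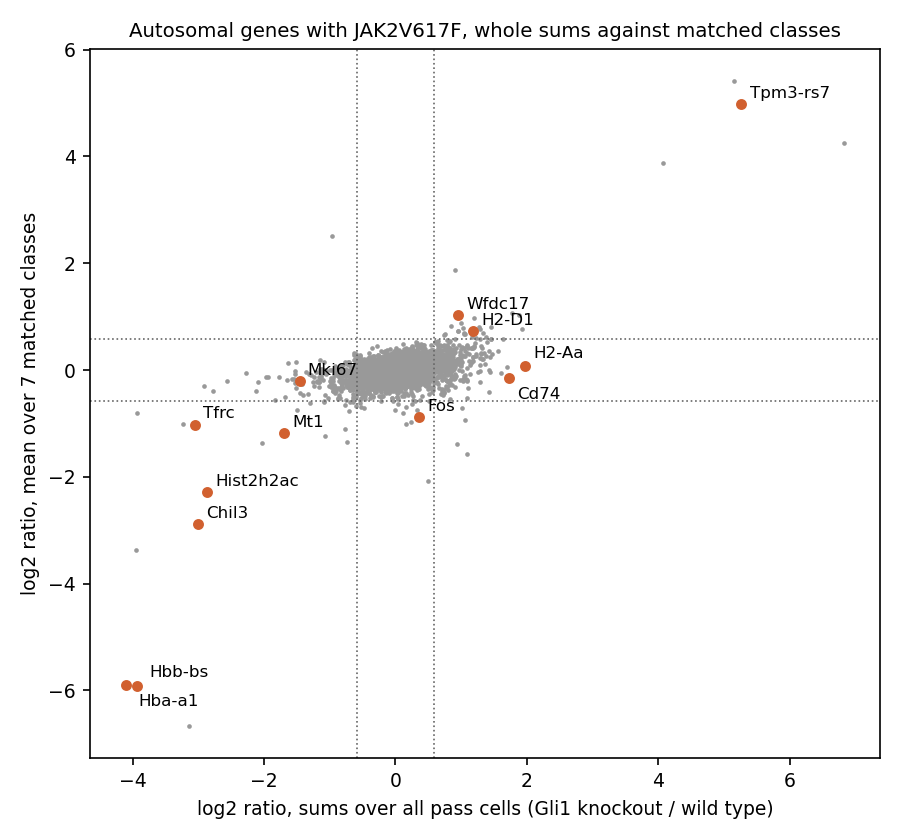
Log2 ratio (Gli1 knockout over wild type with JAK2V617F) of 5422 autosomal genes measured on both scales, in sums over all pass cells (x axis) and in the mean over 7 matched classes (y axis), with dotted lines at 1.5-fold. Most genes spread along the x axis and stay between the lines on the y axis, whereas Tpm3-rs7, Chil3, Hist2h2ac, Tfrc and the haemoglobin genes lie outside on both.

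The 4 lowest class-matched ratios under the naming rule were those of haemoglobin genes, in classes that do not make haemoglobin. Hbb-bs was at 333 and 5.54 CPM (-5.91), Hba-a1 at 205 and 3.41 CPM (-5.91), Hba-a2 at 107 and 1.05 CPM (-6.66) and Hbb-bt at 194 and 18.7 CPM (-3.38). The summed haemoglobin level in wild type was 3204 CPM in T and NK-like cells, 1734 CPM in neutrophil-like cells, 477.5 CPM in basophil-like cells and 57.1 CPM in GMP and promyelocyte-like cells. In the knockout it was 24.04, 17.1, 40.5 and 8.74 CPM. Erythroid-like cells themselves held 20920 and 44120 CPM. Over the 7 classes wild type cells thus carried on average 4.01% of the erythroid haemoglobin level, and the part of free erythroid RNA in these values was not tested. They also moved with doublets: without the highest doublet scores the ratios were -3.25 for Hbb-bs, -2.38 for Hba-a1, -3.83 for Hba-a2 and -1.84 for Hbb-bt.

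Other genes can be read against that 4.01%. Erythroid cells expressed Tfrc, the transferrin receptor, at a level whose 4.01% is 40.1 CPM, and its class-matched difference was 37.8 CPM (74.5 and 36.7 CPM, log2 ratio -1.02). For Mt1, a metal-binding metallothionein, the same product was 34.2 CPM against a difference of 191 CPM. For Tspan32, Fos and Chil3 it was 4.07, 1.29 and 0.127 CPM against differences of 90.3, 305 and 574 CPM. Fos and Chil3 stood at only 32.1 and 3.17 CPM in wild type erythroid-like cells, so their products are small whatever their differences. For Car1, Blvrb, Mt2 and Odc1 the product was 67.4, 64.8, 12.6 and 12.3 CPM. Their class-matched differences were 34.1, 25.2, 15.9 and 12.6 CPM. The product gives only a size to read beside a difference, and the part of free erythroid RNA was not tested for any gene.

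Chil3 was the lowest after haemoglobin under the naming rule. Klrb1b, a natural killer cell receptor gene that the rule leaves out and that was chosen after its values were seen, was lower still at 68.4 and 2.05 CPM (-5.06), from innate lymphoid-like and T and NK-like cells. Chil3 encodes a chitinase-like protein made by neutrophils and alternatively activated macrophages. It was at 4108 CPM in wild type and 613 CPM in knockout neutrophil-like cells, at 454 and 11.9 CPM in monocyte-like cells (-5.25), and at 20.3 and 1.92 CPM in GMP and promyelocyte-like cells. The class-matched values were 664 and 89.9 CPM, a log2 ratio of -2.88. Of 15 measured genes of the secondary granule list, Chil3 alone was past 1.5-fold lower class-matched, none was higher, and the median was 0.17, a mean that neutrophil-like cells carry. Class-matched, 1.19% of all measured genes were lower and 0.663% higher. In monocyte-like cells 4 of 9 list members were lower (median -0.34), in basophil-like cells 5 of 10 were lower and 3 higher (-0.63), and in GMP and promyelocyte-like cells 2 of 7 were lower (-0.00). Of all genes of at least 100 CPM and 50 UMIs, 1.02%, 2.06% (0.968% higher) and 0.791% were lower in these classes. List members were counted from 20 CPM, so these shares have another limit. Retnlg, a neutrophil resistin-like gene, was at 0.43 and Mmp9, a gelatinase, at 0.50.

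Tspan32, a tetraspanin of blood cells, was lower in 7 of 7 classes. Its class-matched level was 158 and 67.2 CPM (-1.23, -1.37 to -1.09), with 168 and 84.1 CPM in HSC/MPP-like and 62.7 and 10.9 CPM in monocyte-like cells. Mt1 was at 341 and 150 CPM (-1.18), through values of 163 and 59.1 in HSC/MPP-like, 694 and 353 in GMP and promyelocyte-like, 697 and 336 in monocyte-like and 507 and 141 in basophil-like cells. In innate lymphoid-like and in T and NK-like cells Mt1 differed little, by -0.31 and -0.11. Within erythroid-like cells, joined over both classes, Mt1 was 0.25 higher in the knockout.

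H2-D1, a classical MHC class I heavy chain, was higher in the knockout in 7 of 7 classes by a similar amount, with log2 ratios of 0.57 to 0.88. Its class-matched level was 1971 and 3260 CPM (0.73, 0.69 to 0.76), with 1329 and 2255 CPM in HSC/MPP-like cells. No other of the 15 measured class I genes was past 1.5-fold higher, and the list's median was -0.17. H2-Q7 and H2-Q6, neighbours of H2-D1 in the same locus, were at -0.58 and -0.55, and Tap2, the peptide transporter, at 0.12. Genes of this family are near-identical and differ between mouse strains, so their split of reads is uncertain.

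Cd34, the adhesion molecule of progenitors, was at 111 and 169.5 CPM (0.61, 0.54 to 0.69), with 134 and 203 CPM in GMP and promyelocyte-like cells and 373 and 436 CPM in HSC/MPP-like cells. Apoe, the lipid carrier, was at 152 and 233 CPM (0.61), and Bloc1s2, a subunit of lysosome-positioning complexes, at 71.5 and 124 CPM (0.79). Wfdc17, a secreted antiprotease of myeloid cells, was at 176 and 359 CPM (1.03), carried by neutrophil-like cells (1056 and 2330 CPM) and in the opposite direction in monocyte-like cells (-0.53). Lst1 (0.81), Ms4a6c (0.70) and Nme2 (0.56, under the 1.5-fold limit) were higher in 7 of 7 classes by their point values. Irf8, the factor that directs precursors towards monocytes and dendritic cells, was at 54.2 and 115 CPM in GMP and promyelocyte-like cells (1.09, 0.98 to 1.20) but at 17.3 and 16.8 CPM in HSC/MPP-like cells. Its class-matched log2 ratio was 0.59.

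Prss34, a basophil and mast cell protease, was at 5847 and 9683 CPM in basophil-like cells. Its class-matched values were 839 and 1394 CPM (0.73). Gzma, a granzyme of cytotoxic lymphocytes, had the highest class-matched ratio under the naming rule (5.16), and it came from T and NK-like cells, with 7 UMIs (35.4 CPM) in wild type and 2115 UMIs (1240 CPM) in the knockout. That class was 21 and 78 cells of cluster 7 with 47 and 250 cells of cluster 19, the latter with natural killer markers such as Ncr1. Tpm3-rs7, a copy of the tropomyosin gene Tpm3, was at 5.37 and 169.5 CPM (4.98), and reads of a gene and its near-identical copy cannot be assigned with certainty.

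Genes past 1.5-fold in the same direction in each of the 7 classes, with over 3 UMIs in at least 1 library of each class, were few: 6 higher (0.102%) and 8 lower (0.136%). The higher ones were Prss34, Tpm3-rs7, Gnb4, Ighg1 and the predicted genes Gm11361 and Gm10260. Gnb4, a G protein beta subunit, was at 19.3 and 40.6 CPM (1.08), with 34.8 and 73.4 CPM in HSC/MPP-like cells. The lower ones were the 4 haemoglobin genes, Tspan32, Hist2h2ac, Mfsd13a and Arl3. Hist2h2ac, a histone H2A gene, was at 80.5 and 16.5 CPM (-2.29) and as low in HSC/MPP-like cells (134 and 18.8 CPM). Mfsd13a (chr19:46341121-46375252, mm10) was at 32.0 and 12.6 CPM and Arl3 (chr19:46531096-46573198), a ciliary GTPase, at 30.5 and 14.2 CPM. Gnb4, Mfsd13a, Arl3, Ighg1 and the predicted genes fell outside the naming rule and were chosen after their values were seen.

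**Figure D3:**
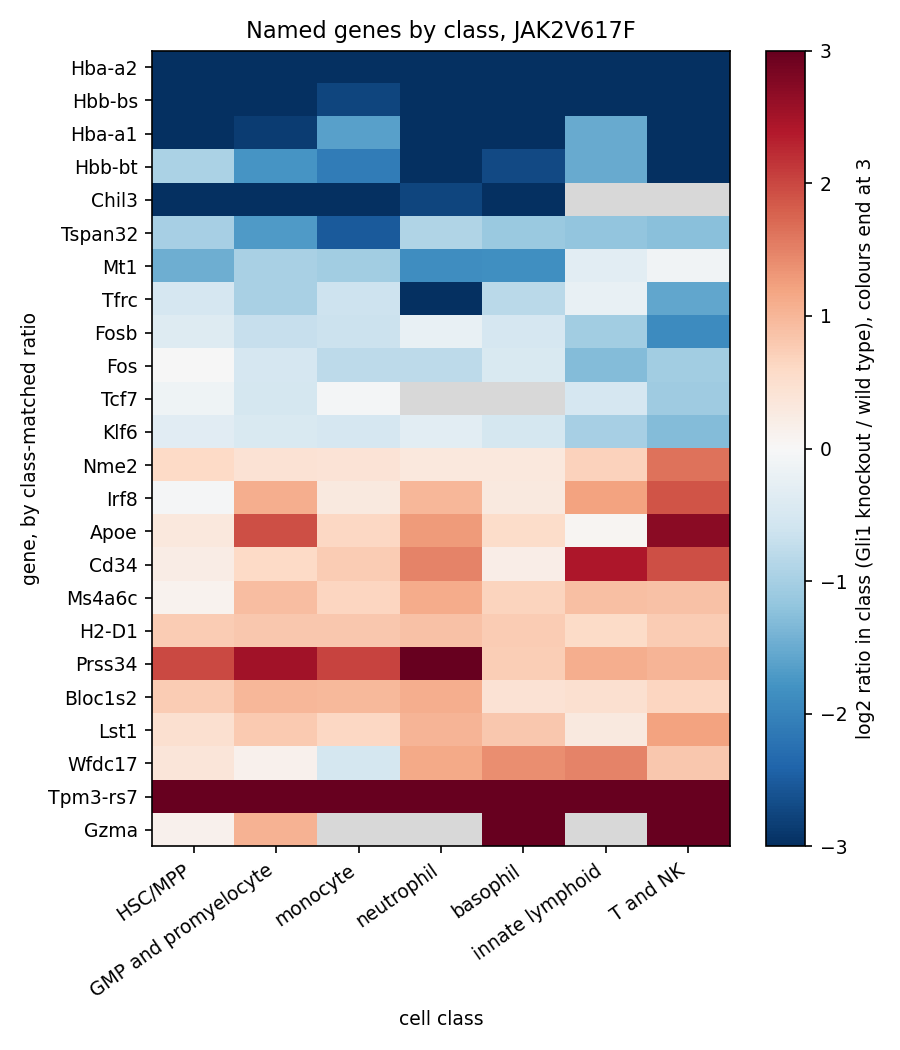
Log2 ratio (Gli1 knockout over wild type with JAK2V617F, colours ending at 3 in either direction) of the 24 genes named by the class-matched rule (rows) in the 7 compared classes (columns), grey where both libraries held too few UMIs. H2-D1, Bloc1s2 and Tspan32 have 1 colour across all 7 columns, whereas Fos and Klf6 are darkest in innate lymphoid and T and NK-like cells and Mt1 is palest there.

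In HSC/MPP-like cells, the largest compared class, 3 of 1577 measured genes (0.19%) were 1.5-fold or more higher and 14 (0.888%) lower. For the gene totals of a class, measured means a mean of at least 100 CPM and at least 50 UMIs. For members of a gene list within a class it means a mean of at least 20 CPM there, with no minimum of UMIs. List counts and medians of a class therefore include sparsely counted genes and have another limit than its gene totals. The naming rule gave as highest Elane, neutrophil elastase, at 117 and 219.5 CPM (0.90), H2-D1 (0.76) and Cd52, a surface glycoprotein, at 182 and 270 CPM (0.57, under the limit). The lowest were Mt1 (-1.47), Tspan32 (168 and 84.1 CPM) and Hist1h3c, a replication histone, at 143 and 74.9 CPM (-0.94). Clustered histones had a median of -0.61 in this class and G2 and mitosis genes of -0.33. The class joined cluster 0, with Hlf and Meis1 among its leading genes (310 and 1818 cells), and cluster 5 (201 and 619 cells). Cluster 5 was led by the platelet gene Pf4, with cell cycle genes such as Hist1h2ap, Pimreg and Nusap1 also among its leading genes. It was 201 of 511 wild type and 619 of 2437 knockout cells of the class. How far this unequal mix carries the histone and mitosis values was not tested.

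GMP and promyelocyte-like cells had 9 of 1518 genes (0.593%) past the limit higher and 12 (0.791%) lower. Cd52 was at 111 and 238 CPM (1.10), Bloc1s2 at 86.7 and 173.5 CPM and Ms4a6c, a membrane protein of monocytes, at 115.5 and 219 CPM. Lcn2, an iron-scavenging lipocalin, was at 249 and 69.5 CPM (-1.84), and Cd63, a granule tetraspanin, at 420 and 193 CPM (-1.12). Monocyte-like cells had 13 of 1562 (0.832%) higher and 16 (1.02%) lower. In them Lcn2 was at 316 and 82.0 CPM (-1.95) and S100a8, a subunit of the alarmin calprotectin, at 1759 and 642 CPM (-1.45), while Crip1 was at 242 and 436 CPM (0.85). Neutrophil-like cells, in which Lcn2 is most abundant, had 15431 and 17495 CPM of it (0.18).

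Neutrophil-like cells had 23 of 1065 genes (2.16%) higher and 35 (3.29%) lower. Prok2, a chemotactic prokineticin, was at 85.3 and 348.5 CPM (2.03) and Ifi27l2a, an interferon-induced gene, at 39.9 and 161 CPM (2.01). Jchain, the joining chain of secreted antibodies and a plasma cell gene, was at 1137 and 15.4 CPM there (-6.21). It was higher in the knockout in the other 6 classes. The antibody genes Igha and Igkc were also higher in 6 classes and lower in 1, and all of these count among the 70 lower class-matched genes. The part of free RNA or doublets in antibody gene values, Ighg1 among them, was not tested. Basophil-like cells had 15 of 1550 (0.968%) higher and 32 (2.06%) lower. The class joined cluster 17 (120 and 266 cells) and cluster 29 (49 and 39 cells), with Ccl6, Fcer1a, Cyp11a1 and Il4 among the leading genes of cluster 29. How far this unequal mix carries the ratios of the class, here and below, was not tested. The cytokine Il4 was at 65.0 and 151 CPM (1.22), and Prg2, an eosinophil granule protein, at 237 and 51.5 CPM (-2.20), with Spp1, osteopontin, at 180 and 38.9 CPM (-2.21). Genes of other myeloid cells also appeared in this class: the neutrophil gene Ngp was at 212 and 38.9 CPM, the monocyte gene Ly6c2 at 303 and 635 CPM and Elane at 394 and 740.5 CPM, and the part of free RNA or doublets in these values was not tested.

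Lymphoid classes were the shallowest in wild type, with medians of 2366.5 and 3928 UMIs per innate lymphoid-like cell and 2814 and 4284.5 per T or NK-like cell. Innate lymphoid-like cells had 51 of 1579 genes (3.23%) higher and 78 (4.94%) lower. Ccl5, a chemokine of cytotoxic cells, was at 305 and 61.1 CPM (-2.32), Gimap4, a lymphocyte GTPase, at 174 and 45.4 CPM (-1.93), and Zfp36l2 at 1468 and 568 CPM (-1.37). Elane, which lymphoid cells do not make, was at 355 and 995 CPM there, and Lmo2, a progenitor factor, at 52.4 and 154 CPM. T and NK-like cells, 68 and 328, had 121 of 1654 (7.32%) higher and 122 (7.38%) lower. Pclaf, a replication gene, was at 30.3 and 255 CPM (3.07) and the G2 and mitosis median was 1.86 in that class. Cluster 6, left unnamed, held 191 and 556 cells, with 6 of 1509 genes (0.398%) higher and 5 (0.331%) lower. Mt1 (-1.02), Cd63 (-1.04) and Bloc1s2 (0.83) differed there in the same direction as in GMP and promyelocyte-like cells.

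The immediate early and AP-1 genes, which cells switch on within minutes of a stimulus, had the lowest median of any list with more than 5 measured genes. Of 17 measured, none was past 1.5-fold higher and 5 were lower, with a median of -0.49, where 0.663% of all measured genes were higher and 1.19% lower. Fos was at 665 and 360 CPM (-0.89), Fosb at 410 and 209 CPM (-0.98) and Klf6 at 195 and 112 CPM (-0.81), and Zfp36 (-0.76) and Dusp1 (-0.74) were the other 2. Dnajb1 (-0.01) and Ier3 (-0.04) lay at the other end. Fos was at 2451 and 990 CPM in innate lymphoid-like cells (-1.31) and at 405 and 402 CPM in HSC/MPP-like cells (-0.01), and the list's class medians ran from -0.79 in innate lymphoid-like to -0.05 in HSC/MPP-like cells. In the sums over all cells the median was 0.26. These genes also respond to cell dissociation and sorting, and a difference in handling between 2 pools cannot be told apart from genotype.

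Targets of JAK-STAT signalling, the pathway that the mutant kinase drives, mostly lay within 1.5-fold between the libraries. Of 17 measured targets and feedback genes, none was higher and 3 were lower, with a median of -0.29, beside 0.663% and 1.19% of all measured genes. Socs2, a STAT5-induced feedback inhibitor, was at 39.0 and 17.6 CPM (-1.15), which came from T and NK-like cells (197 and 51.0 CPM), and it was at 26.0 and 20.5 CPM in HSC/MPP-like cells. Cish, another inhibitor induced by STAT5, was at 39.8 and 22.98 CPM (-0.79), with 80.9 and 20.1 CPM in basophil-like cells (-2.01, -2.44 to -1.59) and 10.1 and 10.6 CPM in HSC/MPP-like cells. Osm, an inflammatory cytokine of the same list, was at 40.2 and 24.4 CPM (-0.72). Pim1, a STAT5-induced kinase, was at 291 and 282.5 CPM (-0.04), Ccnd3, a cyclin, at -0.01, and Myc at 0.19. The list's median was 0.00 in HSC/MPP-like and 0.02 in monocyte-like cells.

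Janus kinases and STATs themselves had a median of -0.02. Stat5a and Stat5b were at 0.18 each, and Jak2 was at 75.8 and 52.6 CPM (-0.53, -0.71 to -0.35). The Jak2 ratio ranged from -0.05 in neutrophil-like to -0.84 in innate lymphoid-like cells. Among cytokine receptors Il7r, the interleukin 7 receptor, was at 474 and 289 CPM (-0.71), Csf3r, the receptor for granulocyte colony-stimulating factor, at 0.49 and Kit at 0.20. Tcf7, a lymphoid factor listed with Il7r among type 2 lymphoid genes, was at 68.9 and 38.8 CPM (-0.83). Of 12 measured genes of that list none was higher and 2 were lower, with a median of -0.40. The shares over all measured genes were 0.663% and 1.19%.

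Promoter letters are shown for Chil3, Irf8 and Cish because these genes differ and hold the STAT core TTCNNNGAA, searched on both strands from 250 bases before to 50 bases after each RefSeq start (GRCm38.p6). Among genes with a promoter in the table, 2 of 28 higher (7.14%), 7 of 54 lower (12.96%) and 380 of all 4683 measured (8.11%) held the core, against 8.30% of all promoters. The 7 lower ones were Chil3, Cish, Gimap6, Gimap8, Gm12216, Il7r and Zfp36. A match is a run of letters and not a bound site. The GLI core GACCACCCA, also on both strands, was in 0 of the 28, 0 of the 54 and 13 of the 4683 (0.278%), and in 0.253% of all 32851 promoters. The AP-1 core TGACTCA was in 1 of 28 (3.57%), 4 of 54 (7.41%) and 3.91% of measured genes, and in 0 of 14 immediate early genes. The STAT and AP-1 cores were chosen after the gene values were seen. Capitals mark the STAT core in the strand of the gene. For Chil3 and Irf8 the 250 bases before the start are shown, and for Cish 10 bases on either side of each core.
Chil3, chr3:106167565-106167814, minus strand: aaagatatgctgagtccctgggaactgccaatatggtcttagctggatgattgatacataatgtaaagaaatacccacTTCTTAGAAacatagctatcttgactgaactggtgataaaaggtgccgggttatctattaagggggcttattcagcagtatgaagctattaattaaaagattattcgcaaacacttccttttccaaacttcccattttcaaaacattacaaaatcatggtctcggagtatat
Irf8, chr8:120736108-120736357, plus strand: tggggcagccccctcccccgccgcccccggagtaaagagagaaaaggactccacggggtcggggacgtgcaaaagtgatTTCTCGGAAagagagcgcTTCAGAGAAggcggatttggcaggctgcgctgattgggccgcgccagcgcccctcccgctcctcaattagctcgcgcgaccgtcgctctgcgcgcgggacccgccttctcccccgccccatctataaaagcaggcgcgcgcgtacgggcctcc
Cish, first core, chr9:107296649-107296677, plus strand: ccgcccagttTTCCTGGAAagttcttgga
Cish, second core, chr9:107296660-107296688, plus strand: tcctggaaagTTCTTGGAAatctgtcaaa
The 2 Cish cores begin at bases 1 and 12 from a start site, Irf8 also holds 2, and Chil3 holds 1.

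Cholesterol synthesis genes had negative medians in the myeloid classes. Of 10 measured, none was past 1.5-fold higher and 2 were lower, with a median of -0.38, again beside 0.663% and 1.19% of all genes. Insig1, the sterol sensor that restrains the pathway, was at -0.70 and Idi1, an isoprenoid isomerase, at -0.59, while Srebf2, the pathway's transcription factor, was at 0.02 and Hmgcs1, HMG-CoA synthase, at -0.19. The class medians were -0.61 in GMP and promyelocyte-like, -0.58 in basophil-like, -0.51 in monocyte-like and -0.22 in HSC/MPP-like cells.

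Inflammatory and profibrotic genes differed by class. Of 8 measured profibrotic ligands, none was higher and 2 were lower, Spp1 (40.2 and 15.5 CPM, -1.38) and Osm, around a median of -0.00. Of all measured genes 0.663% were higher and 1.19% lower, to be read beside this list and the interferon list below. Tgfb1, the principal fibrotic growth factor, was at 239 and 254 CPM (0.09). Spp1 was at 65.6 and 16.3 CPM in monocyte-like cells (-2.01), where 2 of 4 measured ligands were lower, and 3 of 7 were lower in basophil-like cells. Of 18 interferon-stimulated genes 1 was higher and 3 were lower (median -0.14), with Ifi27l2a at 0.77 and the GTPases Iigp1 and Gbp2 at -1.40 and -0.75. Interferon-stimulated genes were past 1.5-fold lower for 8 of 14 in basophil-like cells (median -0.64) and 7 of 17 in innate lymphoid-like cells (-0.57), and the median was 0.48 in monocyte-like cells, with 2 of 7 higher. Of all genes of at least 100 CPM and 50 UMIs, 2.06% were lower in basophil-like and 4.94% in innate lymphoid-like cells. In monocyte-like cells 1.02% were lower and 0.832% higher. Members of the profibrotic and interferon lists were counted from 20 CPM, so these shares have another limit. For the MIF axis the median was -0.06 and Mif was at 716 and 608 CPM (-0.23). Oxidative phosphorylation (0.01), cytosolic ribosomal proteins (-0.04) and unfolded protein response genes (-0.11) had medians near that of all genes.

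**Figure D4:**
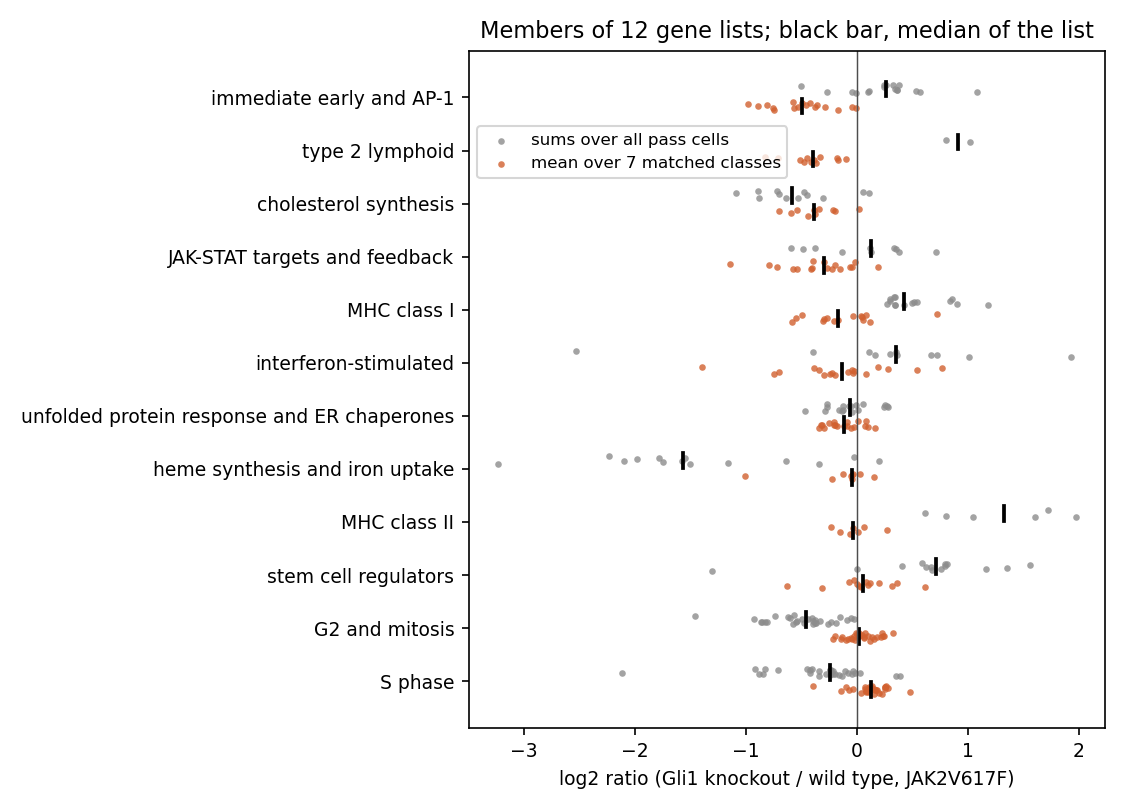
Log2 ratio (Gli1 knockout over wild type with JAK2V617F) of each measured member of 12 gene lists in sums over all pass cells (grey) and in the mean over 7 matched classes (orange), with the list's median as a black bar. The grey medians of heme (-1.56) and class II (1.32) genes lie far from their orange medians of -0.04 and -0.03, and the immediate early list lies at 0.26 in grey and -0.49 in orange.

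The few erythroid-like cells of the knockout could be compared once both classes were joined, with 1369 and 61 cells. Of 1619 measured genes, 21 were 1.5-fold or more higher (1.3%) and 15 lower (0.926%). Hbb-bs was at 9519 and 20170 CPM (1.08) and Isg15, an interferon-induced modifier, at 66.2 and 253.5 CPM (1.94), but both directions rested on cluster 34, which is led by haemoglobin genes and Isg15 and held 10 cells of each library. Without it, in 1359 and 51 cells, 21 of 1633 genes were higher and 10 lower, Hbb-bs was at 9110 and 6432 CPM (-0.50), Hba-a1 at -0.12, Hba-a2 at 0.17 and Isg15 at -1.57. H2-D1 was at 571 and 1251 CPM (1.13) with the cluster and at 1.12 without it. Tfrc was at 1001 and 579 CPM (-0.79), Klf1, the erythroid master factor, at 298 and 223 CPM (-0.42), and Hist2h2ac at -2.00. Epor, the erythropoietin receptor (0.22), and Jak2 (0.09) differed little. The ratio of early to late cells was 462 to 907 in wild type and 27 to 34 in the knockout, and genes of this paragraph were chosen after their values were seen.

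Measured genes near the deleted gene were all within 1.5-fold class-matched. Gli1 lies at chr10:127329882-127341974 on the minus strand (mm10), and of 203 genes within 5 Mb of it 41 were measured and 0 were past 1.5-fold in the class-matched mean, where 1.85% of all measured genes were, so the count is near the background. Cd63 lies in this window, at -0.55 class-matched and at 407 and 79.6 CPM in neutrophil-like cells (-2.35). Across autosomes the share past 1.5-fold ran from 0.223% of 449 measured genes on chromosome 2 to 4.63% of 324 on chromosome 6. Chromosome 19 had 3.45% of 232, with 4 higher and 4 lower. Apart from Ms4a6c, these lay together between chr19:37268743 and chr19:46573198: Ide, Cep55, Pi4k2a, Zfyve27, Bloc1s2, Mfsd13a and Arl3. Of them Ide, Pi4k2a, Bloc1s2, Mfsd13a and Arl3 also passed 1.5-fold in the same direction in the JAK2WT pair described below. Genes that lie so close may not differ independently of each other, and the source of their differences was not tested.

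The pair with JAK2WT shares no library with the comparison above, so its values can stand beside it, over the 6 classes with enough cells in all 4 libraries. Of 5721 genes measured in both, 34 were higher (0.594%) and 62 lower (1.08%) with JAK2V617F, against 305 higher (5.33%) and 120 lower (2.1%) with JAK2WT. The 12 genes higher in both were 35.3% of the JAK2V617F list and 3.93% of the JAK2WT list. The 22 lower in both were 35.5% and 18.3%. H2-D1 was at 1.44 with JAK2WT, Tpm3-rs7 at 4.97, Gnb4 at 1.02, Bloc1s2 at 0.86, Cd34 at 0.69 and Apoe at 0.89. Hebp1, a heme-binding protein chosen after its values were seen, was at 3.08 with JAK2WT and at 8.36 and 47.9 CPM (2.52) over the 7 classes with JAK2V617F. Chil3 was at 27.6 and 1.15 CPM (-4.58), Hist2h2ac at -3.11, Mfsd13a at -1.09, Arl3 at -0.996, and Fosb at -0.85. All of these had the direction seen with JAK2V617F. Lcn2 was at -0.76 with JAK2WT and at -1.34 with JAK2V617F over the 6 classes, but at 0.14 with JAK2V617F once neutrophil-like cells were included.

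Other genes and lists differed in size or direction between the pairs. Tspan32 was lower in both but by only -0.58 with JAK2WT, and Mt1 by -0.22. Spp1 was at 0.51, Cish at 0.26 and Jak2 at -0.24 with JAK2WT. Medians over the 6 classes of immediate early (17 genes), JAK-STAT target (11) and cholesterol (7) genes were 0.20, 0.27 and 0.03 with JAK2WT. The same genes in the same classes had medians of -0.51, -0.27 and -0.43 with JAK2V617F. In all 8 genes passed 1.5-fold in opposite directions, among them Gzma, Prss34, Gimap4 and Junb. Whether any gene's response to Gli1 loss depends on the mutant kinase was not tested, since each of the 4 groups is 1 library, and in both pairs the knockout library held Y-linked transcripts.

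**Figure D5:**
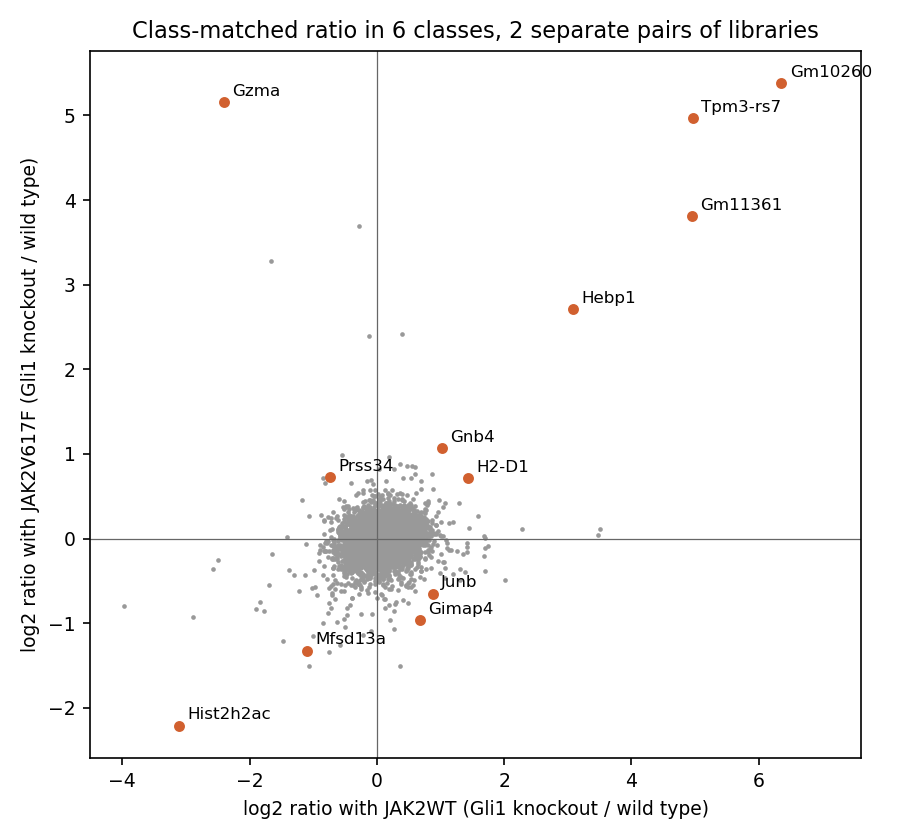
Log2 ratio (Gli1 knockout over wild type) of 5721 autosomal genes in the mean over 6 matched classes, in the JAK2WT pair (x axis) and the JAK2V617F pair (y axis), which share no library. Tpm3-rs7, Hebp1, Gnb4 and H2-D1 lie at the upper right and Hist2h2ac and Mfsd13a at the lower left, whereas Gzma lies at 5.15 with JAK2V617F and -2.41 with JAK2WT.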

How the data were processed

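Droplet single-cell RNA sequencing (10x Genomics) gave 1 library per group, assigned by its title. The authors deposited raw counts of UMIs for each gene and barcode, made with Cell Ranger 4.0.0 on mm10, per the submitters' processing notes, which also name Seurat 4.0.4. The hashing libraries are not analysed here, so the 3 mice of a pool form 1 sample. The comparison, its gene lists and its rules were chosen with earlier results of these data known.

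All 4 libraries (31054 features, of which 29100 autosomal genes were compared) were clustered as 1 set (Leiden, leidenalg 0.10.2 and igraph 0.11.9) in scanpy 1.11.5 (anndata 0.12.19, scikit-learn 1.9.0, numpy 2.4.6, pandas 2.3.3, scipy 1.17.1, Python 3.11.15; figures with matplotlib 3.10.9): 10000 counts per cell, log transform, 2000 variable genes, 30 components, 15 neighbours, Leiden resolution 1.0, no batch correction. Clusters were named from fixed markers, with a mean score of at least 0.5 and at least 3 markers at 50 CPM. At least 1 marker also had to be among the 10 leading genes of the cluster, and no other list could have more there. A cluster with Prg2 or Epx among its 3 leading genes stayed unnamed, a rule added after the data were seen. A name means resemblance, and other names could move shares. Doublets were scored with Scrublet (170 and 455 cells) and kept, and removing them was an alternative. Ratios have exact conditional binomial intervals, shares exact Clopper-Pearson intervals, ratios of shares log-normal intervals and class-matched ratios normal intervals from Poisson variances. A count of 0 entered a ratio at a floor of 3 counts. No p-value is given, since cells of 1 library are not replicates. A gene was called where the libraries were 1.5-fold or more apart.

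Named genes were the 8 highest and 8 lowest ratios of sums and the 12 highest and 12 lowest class-matched ratios at a mean of at least 50 CPM (the latter with 1 direction in at least 0.75 of classes), 3 each way per class, the 2 highest and 2 lowest members of each list described, and Gli1, Jak2, Mif, Cd74, Gata1, Pim1, GFP and Xist. Gata1 is X-linked and has no autosomal ratio. Predicted, ribosomal, immunoglobulin and T cell receptor segment genes were not eligible unless listed. Any other gene named was chosen after its values were seen. Scripts were tested on simulated data. Some genes that the rule names are not reported here.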

Additional observations from a re-analysis of the deposited data

Results flagged for a closer look

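Sex-linked transcripts lay outside the autosomal comparison and were present at high level. The 4 Y-linked genes had 13015 UMIs in the Gli1 knockout library, and Xist had 38864 UMIs in the wild type library.

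In all, 8 genes passed 1.5-fold in opposite directions in the JAK2V617F and JAK2WT pairs, over the 6 classes shared by all 4 libraries, and the difference between the pairs was not tested. Higher in the knockout with JAK2V617F and lower with JAK2WT were Gzma (5.15 and -2.41 on the log2 scale), the antibody gene Igha (3.28 and -1.67, but -2.07 with JAK2V617F once neutrophil-like cells are included), Prss34 (0.73 and -0.74), Ctsh, a lysosomal protease (0.71 and -0.84), and Cd3e, a T cell receptor subunit (0.66 and -0.82). Lower with JAK2V617F and higher with JAK2WT were Gimap4 (-0.96 and 0.68), the AP-1 subunit Junb (-0.65 and 0.88) and Gm12216 (-0.61 and 0.59).

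Shares of 4 classes also moved in opposite directions, again untested. The ratio of knockout to wild type was 3.05 for B lineage-like cells with JAK2V617F and 0.0183 with JAK2WT, 2.68 and 0.360 for T and NK-like cells, 3.23 and 0.533 for conventional dendritic-like cells, and 0.493 and 3.51 for stromal-like cells. The depletion removed B220- and CD3-bearing cells, and how far it differed between pools was not tested.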

How the results depend on the processing

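No paired analysis was possible because each group is 1 library; for the same reason no library could be left out. In sums over all cells, the 421 higher genes became 264 with 10 CPM added, 1026 at a minimum of 5 CPM, 175 at 50 CPM, 97 at 2-fold and 91 without erythroid-like cells. The 379 lower genes became 838 in cells with a GFP UMI, 700 at 5 CPM, 168 at 50 CPM, 148 at 2-fold and 83 without erythroid-like cells. Class-matched, the 39 higher became 23 with 10 CPM added, 172 at 5 CPM, 12 at 50 CPM, 68 with cells thinned to 2000 UMIs and 13 at 2-fold, and the 70 lower became 240 at 5 CPM, 29 at 50 CPM, 132 thinned and 30 at 2-fold. Among cells with a GFP UMI the ratios of shares were 1.29 for GMP and promyelocyte (0.816 in all cells), 1.89 for neutrophil (0.765), 2.02 for basophil (1.00), 1.49 for T and NK (2.68), 0.0990 for early erythroid (0.0324) and 0.0900 for erythroblast (0.0208). Clustering the 2 libraries alone gave 3.46 for HSC/MPP and 3.32 for monocyte, resolution 2.0 gave 0.697 for GMP and promyelocyte, and a minimum of 1000 genes and 2000 UMIs gave 2.26 for innate lymphoid. The other 103 values of these results stayed within counting error or 1.5 times, and the direction turned for the GMP and promyelocyte and neutrophil shares in GFP cells. Of 755 values of 36 list medians 703 were unchanged within their limits, and of 728 values of 40 named genes 607 were. Class-matched ratios in GFP cells had no value, since no class had 50 such cells. Cluster 6 as a further class, joined erythroid classes with or without cluster 34 and knockout cells without Xist were alternatives chosen after seeing the data. The causes were not tested. Depth limits the lymphoid classes most.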
